A study of Drosophila melanogaster with 32 samples.

Results

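Edited sites were examined in 7 genes that encode large cytoskeletal proteins of Drosophila. The genes were Dhc64C, Khc, zip, alpha-Spec, beta-Spec, kst and shot, taken by their names in the deposited site lists, and all 7 of them were found among 5181 gene names. Sites came from S2 cells, an embryonic line with hemocyte-like features. The cells were transfected transiently with a plasmid, treated with copper sulfate to induce the protein and sorted by fluorescence before poly(A) RNA was taken. Of the 4 constructs, Hrp48 TRIBE joins Hrp48 to the wild-type catalytic domain of ADAR and was read in 2 libraries. Hrp48 HyperTRIBE (2 libraries) and FMRP HyperTRIBE (1 library) carry the hyperactive E488Q form of that domain. The fourth, called deaminase alone here, is the E488Q domain with no RNA-binding protein (2 libraries). The series also has a replicate 2 of FMRP HyperTRIBE, which was not analysed here. No deletion of the cells' own Hrp48, FMRP or ADAR genes is named in the labels. Whether replicates were separate cultures is not stated either, so the spread between libraries may be technical. The genes were selected on their numbers of listed sites, which were known beforehand, and those numbers are therefore given as a description, without a test.

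In TRIBE an RNA-binding protein carries a deaminase to the transcripts it binds, where adenosine becomes inosine and is read as guanosine. FMRP is a regulator of translation that in mouse brain was found by crosslinking along the coding sequence of many long transcripts. Hrp48 is an hnRNP protein that in the fly takes part in the localisation and translational control of oskar RNA. The proteins encoded by the 7 genes do mechanical work at the cell cortex and along microtubules. Cytoplasmic dynein and kinesin-1 carry cargo along microtubules in opposite directions, non-muscle myosin II pulls on actin filaments, spectrins form a net under the plasma membrane, and the spectraplakin Shot links actin to microtubules.

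A site is listed in these data when it had at least 20 reads and at least 10% of them edited, which were the lowest values seen. At a position outside the lists, reads may have been few, or editing low or absent. Listed sites numbered from 13 in deaminase-alone replicate 1 to 22803 in Hrp48 HyperTRIBE replicate 2, with median reads per site of 27 to 37. Among genes of plasmatocytes and S2 cells 7 of 13 names had a listed site, including srp with 4 and 5 sites in the Hrp48 HyperTRIBE libraries, while Hml, Pxn, He and NimC1 had none. Of 9 neuronal names 1 had a site (brp), as did 1 of 6 muscle names (Tm1) and 1 of 5 names of the ovarian germ line (aub). Some genes stood in these lists under more than 1 name (Cg25C and Col4a1, nSyb and n-syb), so names outnumber genes.

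The 7 genes took a larger share of the sites of the FMRP library than of either Hrp48 HyperTRIBE library, and a still larger share in one deaminase-alone library. With FMRP they held 61 of 4694 sites, a share of 1.30% (Wilson 95% interval 1.01 to 1.67%). Hrp48 HyperTRIBE listed 31 of 19706 sites in replicate 1 (0.157%, 0.111 to 0.223%) and 47 of 22803 in replicate 2 (0.206%, 0.155 to 0.274%). The FMRP share was thus 8.26 and 6.31 times those of Hrp48 HyperTRIBE. Deaminase-alone replicate 2 placed 15 of its 459 sites in these genes (3.27%, 1.99 to 5.32%), which is 2.51 times the FMRP share. Of those 15 sites 9 lay in kst. The other genes held 1.31% (0.600 to 2.82%) of all sites of this library and 1.04% (0.791 to 1.38%) of all FMRP sites. Deaminase-alone replicate 1 listed 0 sites in the genes among 13 (Wilson upper bound 22.8%; 3 counts of the total would be 23.1%). Hrp48 TRIBE listed 0 of 1252 sites in replicate 1 (Wilson upper bound 0.306%; 3 counts of the total would be 0.240%), and 2 of 1400 in replicate 2 (0.143%, 0.0392 to 0.519%). Intervals and limits cover counting error and take sites as independent, although sites of a gene share a transcript. Levels of the transcripts in each library were not used here, and their part in the numbers of sites was not tested.

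**Figure D1:**
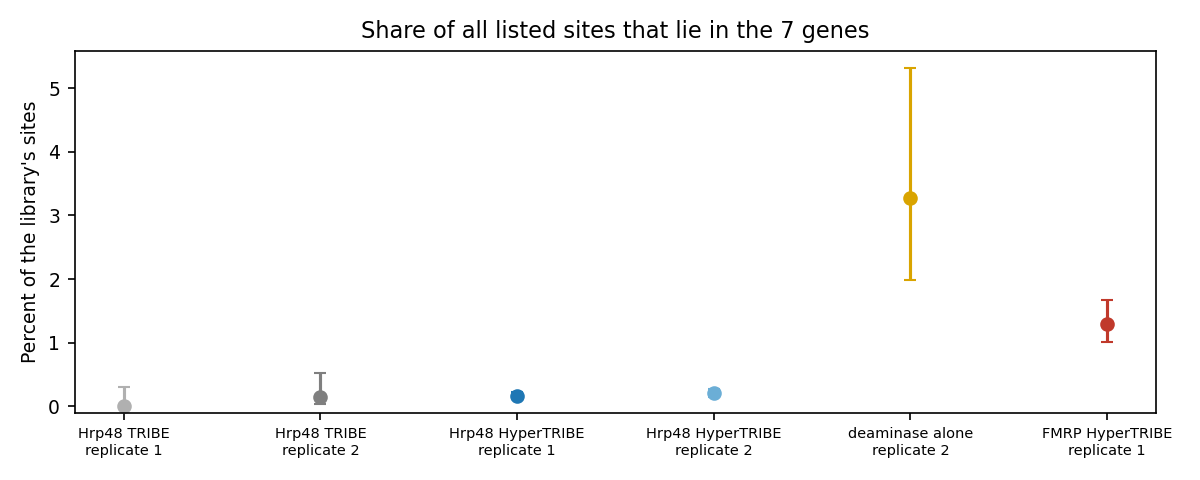
Percent of each library's listed sites that lie in the 7 cytoskeletal genes (y axis), for 6 libraries (x axis); points are shares and bars Wilson 95% intervals, and deaminase-alone replicate 1, with 13 sites, is left out. FMRP HyperTRIBE at 1.30% and deaminase-alone replicate 2 at 3.27% lie above the Hrp48 libraries, which range from 0% to 0.206%.

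All 156 listings of these genes, at 110 positions, were marked as exonic by the authors and none was shared with another gene. Median reads at the sites were 34 with FMRP, 31 and 44 with Hrp48 HyperTRIBE, and 26 in deaminase-alone replicate 2. Median editing was 16% with FMRP, 20% and 16.1% with Hrp48 HyperTRIBE and 13.6% in deaminase-alone replicate 2. Over all sites of each library the medians were 15%, 15.4%, 15.5% and 14.3%, in that order. Of 61 FMRP sites, 5 were edited at 40% or more, against 2 of 31 and 0 of 47 with Hrp48 HyperTRIBE. Apart from a site in zip, those FMRP sites lay in Dhc64C, and the share over each whole library was not formed. Positions below are those of the dm3 genome build, and the strand was read from the bases in the files.

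**Figure D2:**
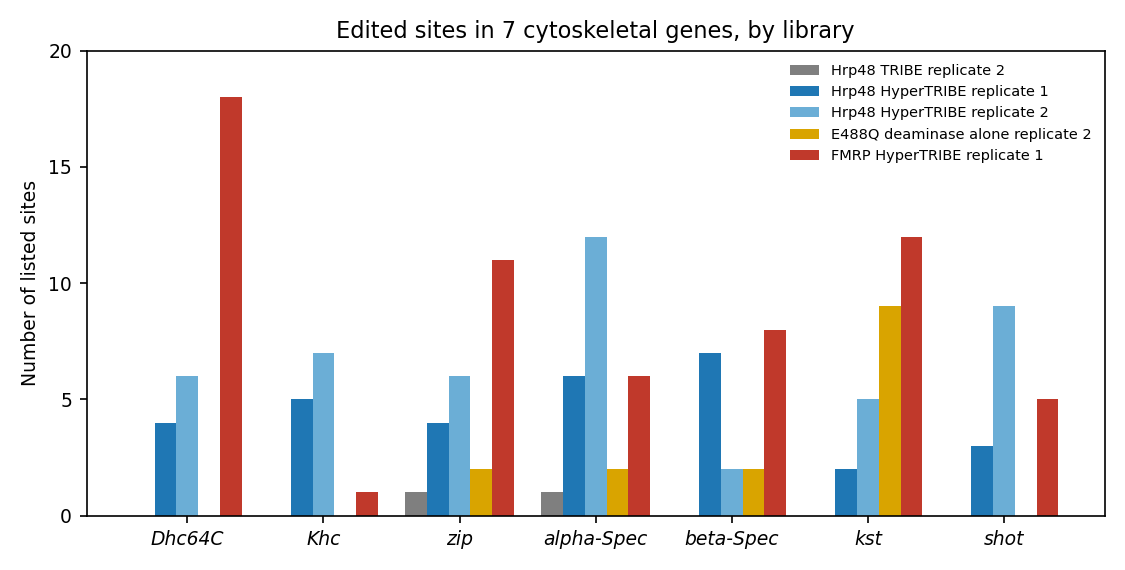
Number of listed sites (y axis) in each of the 7 genes (x axis), with a bar for each library that listed any. FMRP HyperTRIBE is highest in Dhc64C (18), kst (12), zip (11) and beta-Spec (8), and a Hrp48 HyperTRIBE library in Khc (7), alpha-Spec (12) and shot (9). The numbers are not scaled by library size; as a share of the library's sites FMRP is above both Hrp48 HyperTRIBE libraries in every gene but Khc.

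Dhc64C (FBgn0261797; 3L, sites from 4807806 to 4822144, minus strand), which encodes the heavy chain of cytoplasmic dynein, held 18 sites with FMRP. Hrp48 HyperTRIBE listed 4 and 6 sites there, and Hrp48 TRIBE and the deaminase alone listed 0. By number of sites the gene ranked 5 of 2003 genes with FMRP, and 1518 of 4036 and 1208 of 4759 with Hrp48 HyperTRIBE. The FMRP sites covered 7071 bases of genome, introns included, and 17 of the 18 lay within 3254 bases of the 3′-most listed site. The most edited FMRP site of all 7 genes was here, at position 4810999, with 10 of 20 reads (50%, Wilson 95% interval 29.9 to 70.1%). It was not listed with Hrp48, although a site 61 bases away had 27 reads and 14.8% editing in Hrp48 HyperTRIBE replicate 2.

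At 4810769, FMRP edited 12 of 25 reads (48.0%, 30.03 to 66.5%) and Hrp48 HyperTRIBE replicate 2 edited 4 of 38 (10.5%). Similarly, at 4809359 the values were 42.9% (28 to 59.1%) with FMRP and 10% in Hrp48 HyperTRIBE replicate 1. The FMRP values at both positions were the higher ones, in each case against a single Hrp48 library. Hrp48 HyperTRIBE replicate 2 also listed 4822144, the 5′-most site of the gene, with 2 of 20 reads, the lowest values at which a site is listed.

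The gene for kinesin-1 heavy chain, Khc (FBgn0001308; 2R, 12154641 to 12155985, minus strand), did not share that difference. It held 5 and 7 sites with Hrp48 HyperTRIBE, 5 of them in both libraries, and 1 with FMRP. As a share of the library these were 0.0254% and 0.0307% with Hrp48 HyperTRIBE and 0.0213% with FMRP. Its ranks were 1239 of 4036 and 986 of 4759 genes with Hrp48 HyperTRIBE, and with FMRP every listed gene had as many sites or more. The first 5 Hrp48 positions from the 3′ side lay within 353 bases of each other. The site with the highest mean Hrp48 editing, 12154641, is the 3′-most of them and was edited at 40% and 30.8%. The site at 12154760 followed with 33.3% and 27.9%. FMRP listed neither and had its single site at 12155985, the 5′-most position, with 6 of 48 reads (12.5%, 5.86 to 24.7%).

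In zip (FBgn0287873; 2R, 20878176 to 20884658, minus strand), which encodes the heavy chain of non-muscle myosin II, FMRP listed 11 sites and Hrp48 HyperTRIBE 4 and 6. Within 1000 bases of the 3′-most site Hrp48 HyperTRIBE had 2 and 3 sites and FMRP 0, and every FMRP site lay from 2255 to 6482 bases away. A group of 4 FMRP sites stood within 82 bases, at 20880431 (19.7%), 20880435 (17.1%), 20880469 (13.3%) and 20880513 (26.0%). Hrp48 HyperTRIBE listed the last of these at 31.7% of 60 reads and 31.8% of 66 reads, the highest Hrp48 mean in the gene, and not the other three. The top FMRP site was 20883380, with 21 of 51 reads (41.2%, 28.7 to 54.8%), where Hrp48 HyperTRIBE had 20.9% and 13.4%.

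Among the spectrins, alpha-Spec (FBgn0250789; 3L, 1778678 to 1788710, minus strand) had the most Hrp48 positions, 12, beside shot. Its product pairs with either of the beta chains. Hrp48 HyperTRIBE listed 6 and 12 sites (0.0304% and 0.0526% of the library) and FMRP 6 (0.128%). All 6 sites of replicate 1 and 10 of the 12 of replicate 2 lay within 1000 bases of the 3′-most site, against 3 of 6 for FMRP. The highest levels with both proteins were at 1778727, where Hrp48 HyperTRIBE had 41.9% and 36.2% and FMRP 25% (12 to 44.9%). Of the other FMRP sites, 1785074 and 1786464 were listed by no Hrp48 library, at 10.3% and 13.8%. At 1787479, near the 5′ end of the listed range, FMRP had 10 of 57 reads (17.5%) and Hrp48 HyperTRIBE replicate 2 had 11 of 58 (19%).

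In beta-Spec (FBgn0250788; X, 17555731 to 17562977, plus strand), the conventional beta chain, FMRP listed 8 sites. Hrp48 HyperTRIBE replicate 1 listed 7 and replicate 2 listed 2. As a share of the library these were 0.17% with FMRP and 0.0355% and 0.00877% with Hrp48 HyperTRIBE. Both Hrp48 libraries listed 17555779 (12.1% and 15.9%) and 17560693 (13% and 20%). The latter was also the highest FMRP site, at 25% (13.3 to 42.1%), with further FMRP sites upstream at 17560582 (22.2%) and downstream at 17560851 (19.4%). The 3′-most position, 17562977, was at 25% in Hrp48 HyperTRIBE replicate 1 and at 11.8% with FMRP.

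The heavy beta spectrin gene kst (FBgn0004167; 3L, 3357536 to 3366830, plus strand), whose product is an apical spectrin chain in fly epithelia, held 12 sites with FMRP and 2 and 5 with Hrp48 HyperTRIBE. It also held 9 sites in deaminase-alone replicate 2, where it ranked 4 of 282 genes by number of sites. With FMRP it ranked 19 of 2003. FMRP and the deaminase alone shared 3 positions. They were edited at 17.2% and 13% (3362529), 15.6% and 16.2% (3365410), and 30.4% and 24.1% (3365435), with FMRP given first. Each deaminase-alone value lay inside the Wilson 95% interval of the FMRP value. Without the 3 positions FMRP had 9 sites in kst, among them its top site 3364445 (12 of 37 reads, 32.4%, 19.6 to 48.5%), which no other library listed. The Hrp48 site with the highest mean was 3362900, at 28% and 24.4%, where FMRP had 20.8% (9.25 to 40.5%). Adjacent bases, 3362529 and 3362530, were both listed with FMRP.

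Sites in shot (FBgn0013733; 2R, 9752530 to 9792262, minus strand), which encodes the spectraplakin that crosslinks actin and microtubules, were spread over 39732 bases. FMRP listed 5 (0.107% of its sites), and Hrp48 HyperTRIBE 3 and 9 (0.0152% and 0.0395%). No shot position was in both Hrp48 libraries, so no Hrp48 site of this gene was repeated. Its Hrp48 sites near the 3′ end, 0 to 1080 bases from the 3′-most position, had 20 or 21 reads, close to the listing minimum, and included 9752984 at 7 of 20 reads (35.0%) in replicate 1. The 2 FMRP sites farthest 5′, 9788945 (20.7%) and 9792262 (23.1%, 11 to 42.1%), lay 36415 and 39732 bases from the 3′-most site and outside the range of the Hrp48 sites, which ended 20963 bases from it. The other three FMRP sites stood close together, 16630 to 16764 bases from the 3′-most site, at 10.3%, 13.9% and 11.8%.

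**Figure D3:**
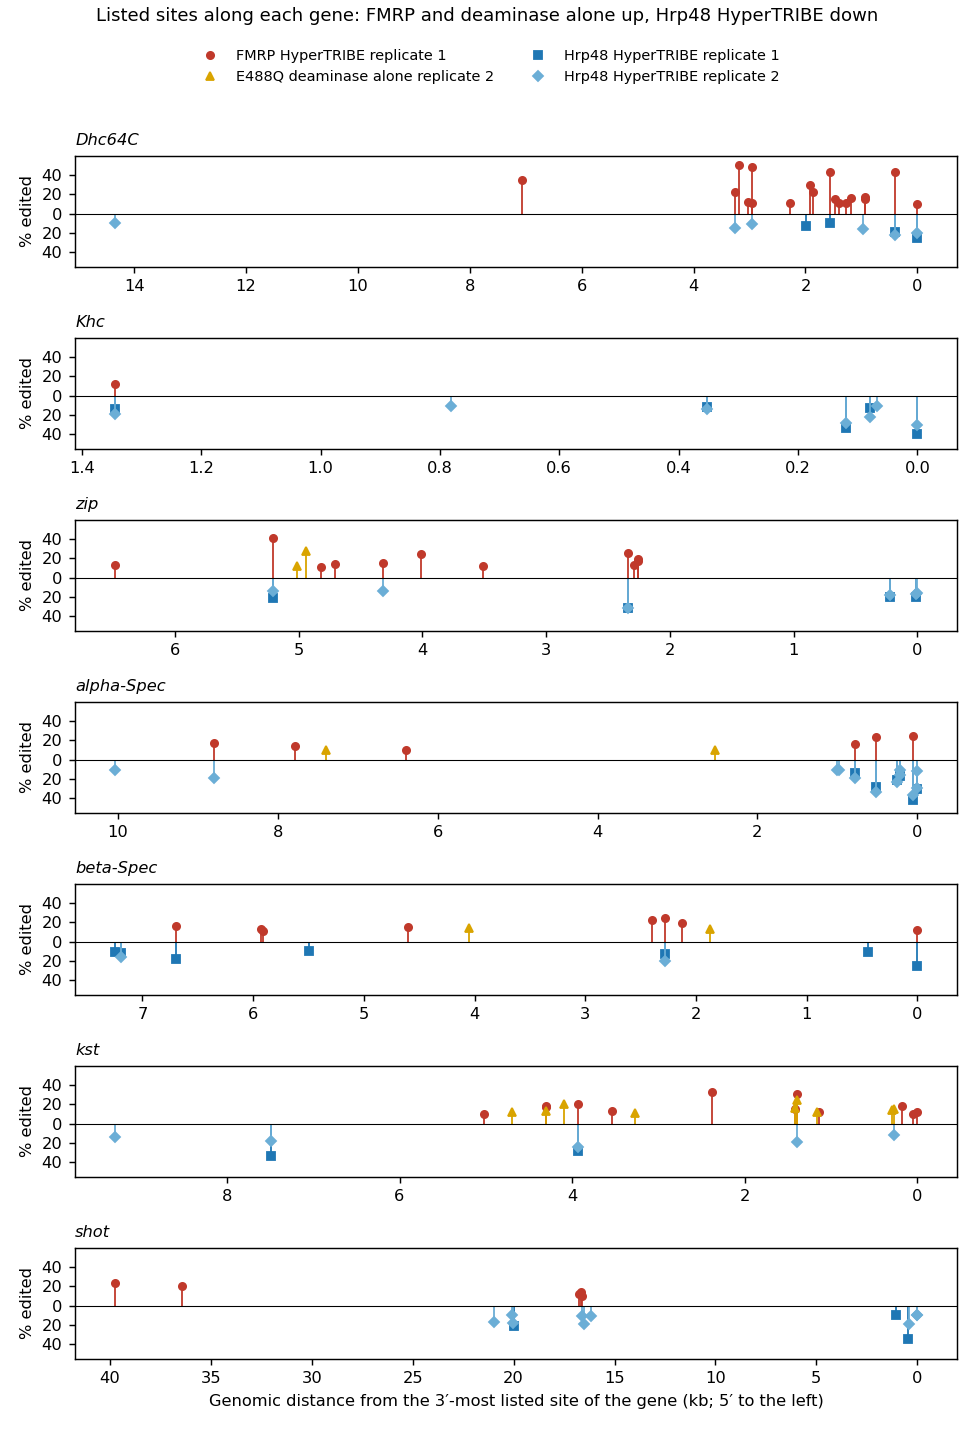
Percent edited at each listed site (y axis; FMRP HyperTRIBE and deaminase-alone replicate 2 upward, both Hrp48 HyperTRIBE libraries downward) against genomic distance in kilobases from the 3′-most listed site of the gene (x axis, 5′ to the left), with a panel for each gene. Hrp48 sites crowd at the right in Khc and alpha-Spec, FMRP sites in zip start 2255 bases from the 3′-most site, and in Dhc64C 17 of 18 FMRP sites lie within 3254 bases of it.

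The next comparison asked whether FMRP and Hrp48 marked the same positions along these transcripts. Of the 61 FMRP sites, 19 were listed at the same position by a Hrp48 HyperTRIBE library (31.1%, Wilson 95% interval 20.9 to 43.6%). Over all genes the share was 70.0% (68.7 to 71.2%, 3407 of 4869 site and gene combinations). Conversely, 19 of 57 Hrp48 HyperTRIBE positions in the 7 genes were FMRP sites (33.3%, 22.5 to 46.3%), against 10.4% (10.04 to 10.7%) over all genes. Since the genes were chosen with the site numbers of both proteins known, neither difference was tested. A Hrp48 site within 100 bases was found for 32 FMRP sites (52.5%, 40.2 to 64.5%), against 77.6% (76.4 to 78.7%) over all genes. The share was 29.5% when replicate 2 of Hrp48 HyperTRIBE was left out, and 21.3% when both libraries had to list the Hrp48 site. Over all genes those settings gave 64.5% and 53.7%.

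By gene, 13 of the 18 FMRP sites of Dhc64C, 10 of 12 in kst, 8 of 11 in zip, 5 of 8 in beta-Spec, 4 of 5 in shot and 2 of 6 in alpha-Spec were at positions that neither Hrp48 HyperTRIBE library listed. The single FMRP site of Khc was listed by both. In all, 42 FMRP sites were without a Hrp48 listing, with a median editing of 14.6% and a range of 10 to 50%, and the other 19 had a median of 22.7%. Listing needs at least 10% editing in each library, and the part of this minimum in the medians was not tested. Such medians were not formed over all genes. A Hrp48 site within 100 bases existed for 13 of the 42. Over all genes, 3407 of 4869 FMRP sites had a Hrp48 site at the same base and 3776 had one within 100 bases. The share among sites without a Hrp48 listing was not formed over all genes. The 13 of 42 is therefore not read as a trait of these genes. Reads at the Hrp48 sites nearest to the 13 ranged from 20 in Dhc64C to 60 in zip, so the neighbourhood was covered in a Hrp48 library. For the remaining 29 the Hrp48 coverage is unknown.

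**Figure D4:**
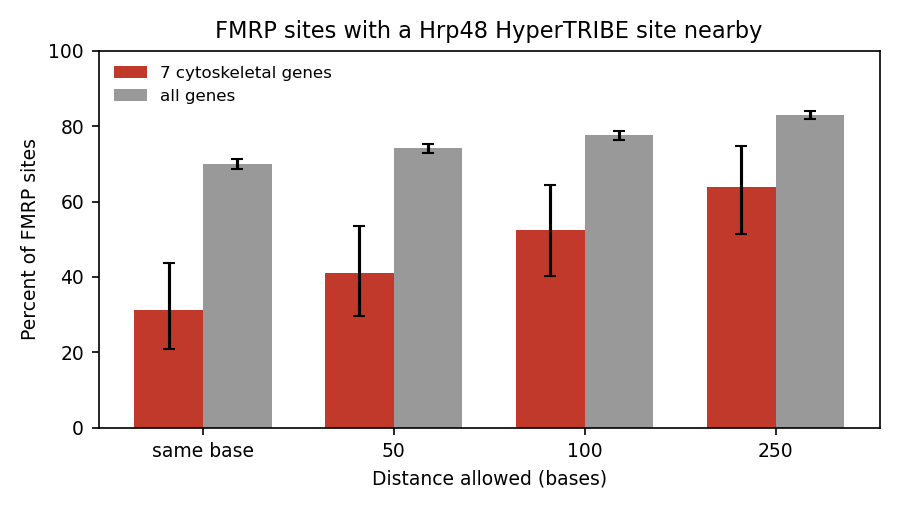
Percent of FMRP sites (y axis) that have a Hrp48 HyperTRIBE site at the same base or within 50, 100 or 250 bases in the same gene (x axis), for the 7 cytoskeletal genes and for all genes; bars are shares with Wilson 95% intervals. The shares in the 7 genes rise from 31.1% to 63.9% and lie below those of all genes, which rise from 70.0% to 83.0%.

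A larger share of Hrp48 than of FMRP sites lay near the 3′-most listed site, a point set from these same lists. Within 1000 bases of it lay 17 of 31 Hrp48 HyperTRIBE sites in replicate 1 (54.8%, Wilson 95% interval 37.8 to 70.8%) and 26 of 47 in replicate 2 (55.3%, 41.3 to 68.6%). Of these, alpha-Spec and Khc held 6 and 4 in replicate 1 and 10 and 6 in replicate 2. The same distance held 11 of 61 FMRP sites (18%, 10.4 to 29.5%) and 2 of 15 deaminase-alone sites (13.3%, 3.74 to 37.9%). Within 2000 bases the values were 59.6% for positions of either Hrp48 library and 36.1% for FMRP. The 3′-most position was itself a Hrp48 site in 6 genes and an FMRP site in 3. With those positions left out, the shares within 1000 bases were 45.1% for Hrp48 and 13.8% for FMRP. Leaving out the 3′-most positions does not free the measure from the Hrp48 sites that set the range in most genes. In Khc all listed sites span 1344 bases, so a window of 1000 bases covers most of that range. The shares were not tested, and none was formed over all genes. Distances are genomic, and transcript ends were not used here.

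Not every gene followed this order. The median FMRP position lay 3200 bases 5′ of the median Hrp48 position in alpha-Spec, 2730 bases 5′ of it in zip and 430 bases 5′ in shot. It lay 2000 bases 3′ of the Hrp48 median in beta-Spec, 2028 bases 3′ in kst and 58.5 bases 3′ in Dhc64C. Thus 3 of the 6 genes with at least 3 sites of each protein had the FMRP median farther 5′, against 383 of 579 genes (66.2%) in the whole series. Without Hrp48 HyperTRIBE replicate 1 it was 3 of 5 genes (67.1% over all genes), and without replicate 2 it was 4 of 5 (66.7% over all genes). In the FMRP library 47.5% (35.5 to 59.8%) of the sites had another site of the same gene within 100 bases. With Hrp48 HyperTRIBE the shares were 29.0% (16.1 to 46.6%) and 38.3% (25.8 to 52.6%). In deaminase-alone replicate 2 it was 6 of 15 sites, a share between those of FMRP and Hrp48 HyperTRIBE. The libraries held different numbers of sites in these genes (61 with FMRP, 31 and 47 with Hrp48 HyperTRIBE). These numbers were not allowed for, the shares were not tested, and none was formed over all genes.

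Editing levels were then compared at the 10 positions that FMRP and both Hrp48 HyperTRIBE libraries listed. They lie in alpha-Spec (3), Dhc64C (2), zip (2), Khc, beta-Spec and kst, and none is in shot. They are 10 of the 61 FMRP sites, since a position had to reach the listing minimum in all 3 libraries. Positions with little editing or few reads in any of these libraries were left out. The comparison therefore does not cover the other FMRP sites of the 7 genes. Reads ranged from 24 to 51 with FMRP and from 25 to 67 with Hrp48. Over the 10 positions the median was 24.2% with FMRP and 23% and 21.1% with Hrp48, whereas over all 2209 positions of this kind it was 17.5% against 25% and 23.8%. The limma fit on log2 odds called 0 of the 10 at an adjusted p under 0.05, and 3.21% of all 2209 positions, of which 70 were lower and 1 higher with FMRP. At an unadjusted p under 0.05 it named 3 of the 10, beside 25.4% of all 2209 positions.

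Those 3, a share close to that over all positions, went in different directions. In zip, position 20883380 was at 41.2% with FMRP and at 20.9% and 13.4% with Hrp48, a difference of 1.74 ± 0.53 log2 odds (SE; limma adjusted p = 0.0932). Dhc64C position 4808207 was at 43.5% (20 of 46 reads, 30.2 to 57.8%) with FMRP and at 19.4% and 21.7% with Hrp48, a difference of 1.51 ± 0.48 (limma adjusted p = 0.0996). Both FMRP values lay above both Hrp48 values. At 4807806, 401 bases farther 3′ in Dhc64C, the order was reversed, with 10% (3.96 to 23.1%) for FMRP and 25% and 20.5% for Hrp48, a difference of -1.31 ± 0.49 (limma adjusted p = 0.144). With reads pooled per construct, which drops the spread between libraries, Fisher's exact test called the zip position (adjusted p = 0.0178) and no other of the 10, and 10.7% of all positions.

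Across the other 7 positions the differences ranged from -0.88 log2 odds at 1778727 in alpha-Spec to 0.77 at 17560693 in beta-Spec, with standard errors of 0.48 to 0.52. Their limma adjusted p-values were between 0.294 and 0.907, and the kst position 3362900 differed by -0.38 ± 0.48. FMRP lay below both Hrp48 libraries at 6 of the 10, above both at 3 and between them at 1. Over all 2209 positions it lay below both at 60.5% and above both at 19.8%. FMRP is represented by replicate 1 only, which the fit takes to vary like those of Hrp48, so these p-values carry no measure of spread between FMRP libraries.

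**Figure D5:**
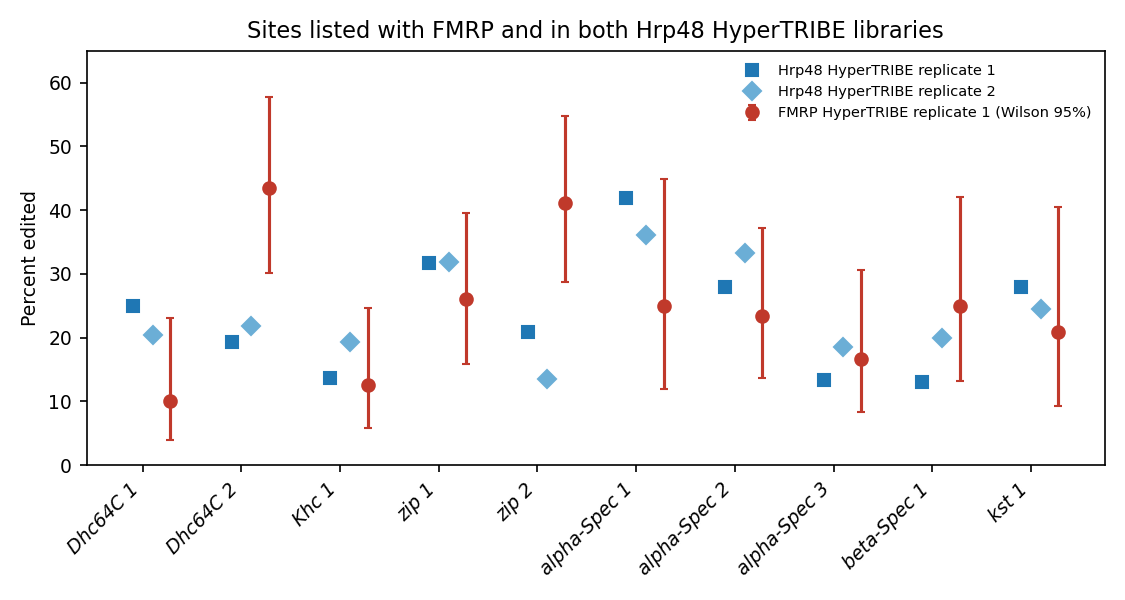
Percent edited (y axis) at the 10 positions listed with FMRP and in both Hrp48 HyperTRIBE libraries (x axis; numbered within a gene from the 3′ side), as a point for each library, with Wilson 95% intervals for FMRP. FMRP is above both Hrp48 points at the second Dhc64C position (43.5%), the second zip position (41.2%) and the beta-Spec position (25%).

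The wild-type and E488Q domains on Hrp48 were compared at positions listed in all 4 Hrp48 libraries. The 298 such positions, of which limma called 27.9%, included 0 of these genes. Hrp48 TRIBE replicate 2 listed 1 site in zip (20878399, 5 of 32 reads, 15.6%) and 1 in alpha-Spec (1778891, 4 of 25 reads, 16%). Both HyperTRIBE libraries listed the same positions, at 20% and 17.5% in zip and at 16.7% and 15.4% in alpha-Spec. In a fit added after seeing the data, on the 937 positions listed in those 3 libraries, the differences of HyperTRIBE from TRIBE were 0.28 ± 0.49 and -0.04 ± 0.49 log2 odds (SE; limma adjusted p = 0.662 and 0.952). Of these 2 positions 0 were called. Over all 937 it was 35.2% (34.9% higher and 0.32% lower with HyperTRIBE), and no contrast is drawn from so few positions. TRIBE is a lone library in that fit, taken to vary like those of HyperTRIBE. The pair entered only because TRIBE replicate 2 reached the listing minimum there, so it says little of the TRIBE levels in these genes.

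With the deaminase alone, all 15 sites came from replicate 2. Besides the 9 in kst they were 2 each in zip, alpha-Spec and beta-Spec, and Dhc64C, Khc and shot had 0. The zip sites at 20883120 (8 of 29 reads, 27.6%, 14.7 to 45.7%) and 20883190 (12.5%) lay between FMRP sites but were listed with neither FMRP nor Hrp48. The alpha-Spec sites, 1781211 and 1786071, were at 10.3% and 10%, and the beta-Spec sites, 17558929 and 17561101, at 14.3% and 13.6%. The 6 kst sites that FMRP did not list had 11.5 to 20%, and 3366557 was also listed by Hrp48 HyperTRIBE replicate 2 (14.7% and 11.5%, with the deaminase alone given first). Of the 15 sites 11 were in neither the FMRP nor a Hrp48 HyperTRIBE library. The share also listed with FMRP was 20% (7.05 to 45.2%), against 25.8% over all genes, and the share also listed with Hrp48 HyperTRIBE was 13.3% (3.74 to 37.9%), against 42.4% (37.99 to 46.8%). In the file headers the FMRP library and each deaminase-alone library carry a set number that no other construct has, so the effects of set and construct cannot be told apart.

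Other genes of the same machinery took like shares of the FMRP and Hrp48 HyperTRIBE libraries. Outside the 7 genes, 5 lists of motor, spectrin, myosin and linker genes held 72 sites in 30 genes with FMRP and 272 in 41 genes and 327 in 47 genes with Hrp48 HyperTRIBE. As a share of the library these were 1.53% with FMRP and 1.38% and 1.43% with Hrp48 HyperTRIBE. Deaminase-alone replicate 2 had 3 such sites (0.654%).

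Numbers for single genes come from libraries of 4694 sites with FMRP and of 19706 and 22803 with Hrp48 HyperTRIBE, and are not scaled. Within the dynein and dynactin list, egl and BicD, which together link dynein to RNA cargo, held 6 and 5 FMRP sites, with 2 and 10 and with 6 and 10 Hrp48 HyperTRIBE sites. The light intermediate chain gene Dlic had 2 FMRP sites and 15 and 12 Hrp48 sites, and the dynein regulator Lis-1 had 0 and then 14 and 8. Kinesin genes other than Khc had at most 1 FMRP site each, and Klp64D, a kinesin-2 motor, and Pat1 had the most Hrp48 sites (9 and 10, and 6 and 10). Ank, an ankyrin that binds spectrin, had 5 FMRP sites and 13 and 12 Hrp48 sites, and the adducin gene hts had 1 and then 11 and 15. Among myosins and their regulators Myo31DF, a class I myosin, had 4 FMRP sites and 14 and 12 Hrp48 sites, and flw, a catalytic subunit of myosin phosphatase, had 2 and then 7 and 9. Patronin and msps, which act on microtubule ends, had 6 FMRP sites each, with 20 and 17 and with 11 and 15 Hrp48 sites. The microtubule-binding protein gene ens had 2 FMRP sites and 18 and 23 Hrp48 sites.

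The lists, including the 7 genes, held 39 of the 2209 positions compared between FMRP and Hrp48, in 23 genes. Of these limma called 0 higher and 1 lower with FMRP, against 0.0453% and 3.17% over all positions. The called position, named after its values were seen, was in flw (X, 10301709), at 14.8% with FMRP and 54.8% and 46.0% with Hrp48 (limma adjusted p = 0.0453). Median differences were 0.05 log2 odds for 4 dynein and dynactin positions, -0.33 for 4 kinesin, -0.28 for 14 spectrin skeleton, -0.91 for 7 myosin and -0.49 for 10 linker positions, beside -0.50 over all 2209.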

How the data were processed

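The deposited site lists of 7 of the 32 samples were used, and the others were not analysed here. Per the file headers and values, the authors give whole-number read counts per base, edited and total reads, and the percent edited for each site. A deposited score, equal to 10 times the percent, was left unused. Base counts did not add up to the total in 1 of 52199 lines. Per the submitters' processing notes, the tools included Picard 2.8.2 and TopHat2 2.1.1, with the build dm3. Site positions, gene names and exon marks are those of the files, and all 7 names matched the gene name table. Reads at a site reached at most 108 to 149 in each library, so they were not used as expression levels.

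Groups and replicate numbers came from sample titles. Log2((edited + 0.5)/(unedited + 0.5)) was compared with limma 3.58.1 in R 4.3.3 over all sites listed in every library of a comparison, two-sided, with Benjamini-Hochberg adjustment at 0.05; the fit was tested on simulated data. Shares carry Wilson 95% intervals. Limits for a count of 0 are 3 counts of the total. Python 3.11.15, pandas 2.3.3 and scipy 1.17.1 were used. Sites were named where FMRP and both Hrp48 HyperTRIBE libraries, all 4 Hrp48 libraries or the deaminase alone listed them, and where they had the highest editing in a gene; other sites were named after their values were seen. In each gene list, the genes with most FMRP and most Hrp48 sites were named, and BicD after its values were seen. The genes, lists and comparisons were chosen with earlier results of these data known. A comparison set of long genes was planned but not formed, since protein lengths were not used here.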

Additional observations from a re-analysis of the deposited data

How the results depend on the processing

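With an offset of 1 again 0 of the 10 sites were called between FMRP and Hrp48, and with at least 50 reads 1 site was left to test and was not called. Over all 2209 positions the offset of 1 called 7 higher and 150 lower with FMRP, against 1 and 70 in the main fit. At 50 reads or more, 9 were called higher and 154 lower among 558 positions. The comparison of Hrp48 constructs over all 4 libraries held 0 sites of these genes under every setting. With TRIBE replicate 2 only, the 2 sites were not called with an offset of 1 or by Fisher's exact test, and 0 were left at 50 reads. Over all 937 positions the offset of 1 called 354 higher and 3 lower with HyperTRIBE, and Fisher's exact test 252 higher and 0 lower. Fisher's exact test on pooled reads called 1 site in the FMRP comparison, zip 20883380 (1.82 log2 odds), and 10.7% of all 2209 positions. The alpha-Spec position 1779461 went from 0.11 to -0.16 log2 odds without Hrp48 HyperTRIBE replicate 1 and to 0.38 without replicate 2, values with no test; the cause was not tested. Same-numbered Hrp48 libraries did not deviate together (r = -0.01 over 298 sites), and the replicate block left 83 sites called in the whole series, as without it, and 0 in these genes. At sites of at least 50 reads the numbers in the 7 genes were 9 for FMRP, 11.5 (mean) for Hrp48 HyperTRIBE, 0 for Hrp48 TRIBE and 0 for the deaminase alone. By library these were 9 of 946 such sites with FMRP, and 7 of 4489 and 16 of 6360 with Hrp48 HyperTRIBE. Hrp48 TRIBE listed 174 and 216 such sites, and the deaminase alone 2 and 63. At 20% editing or more the numbers in the 7 genes were 20, 14, 0 and 1.5, in the same order of constructs. Library totals at that level were not formed. Sites in both libraries numbered 21 for Hrp48 HyperTRIBE, 0 for Hrp48 TRIBE and 0 for the deaminase alone. Leaving out a library gave 0 to 2 for Hrp48 TRIBE and 0 to 15 for the deaminase alone. The share of FMRP sites at a Hrp48 position was 16.4% when both Hrp48 libraries had to list it (47.2% over all genes). Within 100 bases it was 21.3% on that condition and 29.5 to 44.3% without a Hrp48 library. At 50 reads or more it was 66.7%, from 6 of 9 sites (35.4 to 87.9%). Over all genes the values within 100 bases were 53.7%, 64.5 to 69.0% and 86.1%, in that order. Within 1000 bases of the 3′-most site lay 66.7% of Hrp48 positions in both libraries, and within 2000 bases 36.1% of FMRP sites. With kst left out, the other genes held 1.31% of all sites of deaminase-alone replicate 2. The settings on position, kst and 50 reads within 100 bases were chosen after seeing the data. FMRP rests on 1 library here, and reads of 20 to 71 per FMRP site leave wide intervals.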
